A study of Homo sapiens with 4 samples.

Results

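The insulin-like growth factor (IGF) receptors, the insulin receptor substrates that dock to them and the IGF-binding proteins were followed as 10 listed genes, matched by Ensembl identifier, out of 63856 genes in the count table. They were IGF1R, IGF2R, IRS1, IRS2, IGFBP2, IGFBP3, IGFBP4, IGFBP5, IGFBP6 and IGFBP7. RNA-seq had been done on MCF10A, a non-tumorigenic human mammary epithelial cell line, as 2 libraries of wild type (WT) cells and 2 libraries of cells stably overexpressing HSF1 from the lentiviral vector pLVX (HSF1-pLVX). The HSF1-pLVX cells had been selected with puromycin, and RNA-seq of empty-vector cells was not analysed here, so effects of vector, selection and HSF1 cannot be told apart. The medium of the line contains insulin, at 5 µg/mL, and also horse serum (5%), EGF (20 ng/mL) and hydrocortisone (0.5 µg/mL). The study asked how HSF1, the main transcription factor of the heat shock response, affects the plasticity of mammary epithelial cells.

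IGF1 and IGF2 are secreted growth factors that bind IGF1R, a receptor tyrosine kinase whose signal runs through IRS docking proteins to phosphatidylinositol 3-kinase (PI3K) and AKT. IGF2R has no kinase and carries IGF2, along with enzymes tagged with mannose 6-phosphate, to lysosomes. The IGF-binding proteins are secreted, hold IGFs outside the cell with high affinity and can block or prolong their action. IGFBP7 differs from the others in its low affinity for IGFs.

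Library totals were between 18688109 and 24184285 counts. HSF1 itself was measured at 200.4 and 189.2 CPM (counts scaled to a common library size after TMM normalization) in WT and at 982.4 and 998.6 CPM in HSF1-pLVX, a log2 fold change of 2.35 ± 0.10 (SE) with an adjusted p of 1.15e-10 (edgeR quasi-likelihood test, Benjamini-Hochberg over 15830 tested genes). These counts do not separate the cell's own HSF1 transcript from that of the inserted coding sequence. Markers were checked as summed CPM. The 8 markers listed as basal, among them the general epithelial genes CDH1 and EPCAM, were all tested and summed to 14690 and 14270 in WT and 8427 and 9022 in HSF1-pLVX. Of these, 5 were lower (KRT14, KRT17, CDH1, EPCAM and LAMB3) and 3 higher (KRT5, TP63 and ITGA6), and KRT17, at 7223 and 7165 CPM in WT and 1183 and 1256 CPM in HSF1-pLVX, fell by more than the sum did. The 8 luminal markers summed to 4886 and 4969 in WT and to 956.1 and 778.2 in HSF1-pLVX, a sum carried by KRT8 and KRT18. Of the 6 that were tested, 5 were lower and ESR1 was higher (log2 fold change 1.65), and PGR was at 0 counts everywhere. The 8 fibroblast markers summed to between 7.88 and 15.01 CPM, and 4 of them never passed 3 counts in a library. Of the 2 that were tested, DCN was higher and COL1A1 did not pass. The 6 endothelial and immune markers summed to at most 1.51 CPM. Markers were called at an adjusted p of 0.05, where 33.2% of all tested genes were lower and 32.7% higher. The part of these marker shifts in the results on the IGF genes was not tested.

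Of the 10 IGF genes, 9 had enough counts to be tested. The transcripts of IGFBP3, IGF2R, IRS2, IRS1 and IGFBP7 were lower in HSF1-pLVX cells, and those of IGFBP2, IGFBP6 and IGFBP4 were higher, while IGF1R did not pass the test and IGFBP5 was too low to test. In these bulk libraries fewer cells that express a gene and less RNA of it per cell cannot be told apart. Calls were made at an adjusted p of 0.05, where 33.2% of all tested genes were lower and 32.7% higher, so 5 and 3 of 9 are counts in a comparison in which most genes were called. The median log2 fold change was -0.24 over the tested IGF genes and 0.02 over all tested genes. With a log2 fold change beyond 1 added to the call, 1 of the IGF genes was lower (IGFBP3, with IGF2R at the limit, on a side that changed with the setting) and 2 were higher (IGFBP2 and IGFBP6), against 14.0% and 14.9% of all tested genes. In all 9 tested genes the values of the WT and HSF1-pLVX libraries did not overlap, as in 41.0% of all tested genes with HSF1-pLVX lower and 42.1% with it higher. An exact permutation test of 2 against 2 libraries cannot give a p below 0.333, so the adjusted p-values rest on the spread that edgeR shares across genes.

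**Figure D1:**
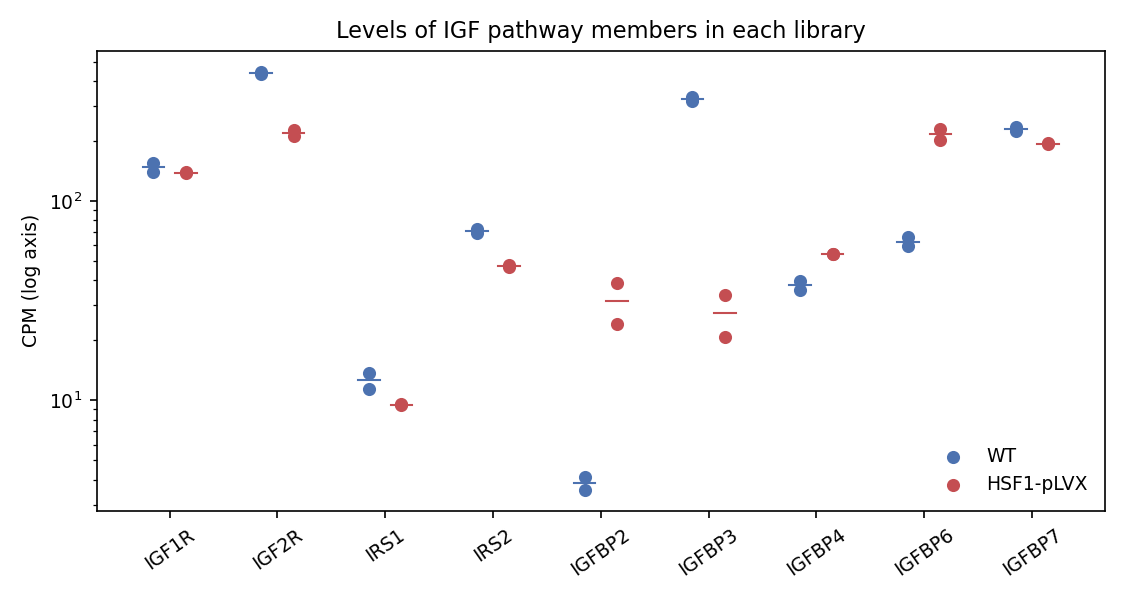
Level of each IGF gene in each library in CPM on a log axis. Points are libraries (2 WT, 2 HSF1-pLVX) and short lines are group means, and IGFBP5, with at most 4 counts in a library, is not drawn. IGFBP3 falls from 331.6 and 319.1 CPM in WT to 33.7 and 20.9 CPM, and IGFBP2 rises from 4.10 and 3.55 to 24.1 and 38.9 CPM.

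The promoters of 3 of these genes are shown because they cover both directions of change: IGFBP3 and IGF2R, which were lower, and IGFBP2, which was higher. IGFBP6, also higher, is not shown because its window lies in the first exon of another transcript of IGFBP6 itself. Each is the 150 bases before a transcript start that RefSeq gives on GRCh38.p14, read 5′ to 3′ on the gene's strand. Capitals mark the GC box, GGGCGG or its reverse complement CCGCCC, a site type bound by Sp1-like factors.
IGFBP3, chr7:45921273-45921422, minus strand: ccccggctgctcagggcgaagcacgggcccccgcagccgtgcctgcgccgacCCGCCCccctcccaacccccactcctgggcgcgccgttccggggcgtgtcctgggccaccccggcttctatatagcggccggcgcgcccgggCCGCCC
IGFBP2, chr2:216633270-216633419, plus strand: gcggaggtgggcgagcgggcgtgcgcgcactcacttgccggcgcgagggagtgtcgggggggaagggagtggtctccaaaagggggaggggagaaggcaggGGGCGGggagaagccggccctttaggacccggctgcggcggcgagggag
IGF2R, chr6:159968932-159969081, plus strand: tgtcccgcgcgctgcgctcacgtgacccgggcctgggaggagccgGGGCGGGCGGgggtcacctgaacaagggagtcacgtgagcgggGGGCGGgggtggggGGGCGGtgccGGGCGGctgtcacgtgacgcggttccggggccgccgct
The IGFBP2 stretch lies before the start at 216633420 and inside an intron of a longer isoform. RefSeq also gives an earlier and a later start for IGFBP2, whose stretches are not shown. The IGFBP3 stretch lies inside the span of the gene as counted, which runs from 45912245 to 45921874. GC content over the 250 bases before each of the starts shown was 76% for IGFBP3, 69.2% for IGFBP2 and 79.2% for IGF2R. The median over all promoters was 58.7%. It was taken over windows of 300 bases that include 50 bases after the start, so it is not the same measure.

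HSF1 binds repeats of the unit GAA and its reverse complement TTC, spaced by 2 bases. RefSeq promoter windows of 300 bases (250 before the start and 50 after it) existed for 9 of the 10 genes, in 11 windows, with none for IGFBP7. On either strand, GAANNTTC stood in 1 of these windows, that of IGFBP5, as GAAACTTC beginning 12 bases after the start. It stood in 6.79% of all 34943 promoters. TTCNNGAA, found in 7.74% of all promoters, and GAANNTTCNNGAA, found in 0.489% and containing both shorter motifs, had no match in the 11 windows. The GC box stood in 9 of the 11 windows, in 44.9% of all promoters and in 64.3% of the promoters of tested genes. IGF2R held 6 copies of it, IRS2 5, IRS1 4, IGFBP3, IGFBP4 and IGF1R 2 each, IGFBP6 1, and IGFBP2 1 in each of the windows of its earlier starts. The IGFBP6 window is counted here although it lies in the first exon of another transcript of the same gene. TATAAA, found in 11.6% of all promoters, stood in that of IGFBP4 alone among these genes, 29 bases before the start. CCAAT, found in 34.6% of all promoters, stood in those of IGFBP2 and IRS2. These are matches of letters in a short window and say nothing of binding by a factor.

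The ligands were at or near 0. INS and IGF1 had 0 counts in all 4 libraries, and IGF2 had 5 and 5 counts in WT and 4 and 2 in HSF1-pLVX. Counts of 0 here allow up to 3 counts per library. IGF1 shares 82.8% of its counted exon length with HELLPAR on the opposite strand, and the strand setting of the counting is not given in the sources used here. Apart from INSR, which is given below, the other genes of the same list were also near 0. IRS4 and IGFBPL1 had no counts, and IGFBP1, IGFALS and INSRR, an insulin receptor relative, had at most 3 counts in any library.

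Among the receptors, IGF1R, which transmits the growth signal, did not pass the test, and IGF2R, the clearance receptor, was lower in HSF1-pLVX cells, at 0.501 of its WT level. IGF1R (ENSG00000140443.13, chr15:98648971-98964530 on hg38, plus strand) had 155.8 and 140.5 CPM in WT and 140.0 and 138.3 CPM in HSF1-pLVX. The groups were separated only by the gap between 140.5 and 140.0 CPM, which is smaller than the difference between the WT libraries. Its log2 fold change was -0.09 ± 0.09 (SE, 95% interval -0.28 to 0.10), with an adjusted p of 0.387 (edgeR quasi-likelihood test). Without WT replicate 1 the sign turned, at 0.0061 (adjusted p = 0.967), in a range of -0.16 to 0.0061 when each library was left out. INSR, the insulin receptor, had 23.8 and 20.9 CPM in WT and 26.2 and 27.7 CPM in HSF1-pLVX, a log2 fold change of 0.27 ± 0.10 (SE), with an adjusted p of 0.0328 (edgeR). Per kilobase of counted exon, the level of IGF1R was 5.06 and 5.19 times that of INSR in WT and 4.13 and 3.86 times in HSF1-pLVX.

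IGF2R (ENSG00000197081.12, chr6:159969099-160113507, plus strand) had 446.4 and 433.8 CPM in WT and 228.4 and 212.9 CPM in HSF1-pLVX. Both HSF1-pLVX libraries lay far below both WT libraries, and the gap was many times the difference within either pair. The log2 fold change was -0.996 ± 0.09 (SE, 95% interval -1.19 to -0.80), with an adjusted p of 3.08e-07 (edgeR). This is at the limit of 1: the value was -1.01 with RLE normalization, -1.01 with DESeq2 and -1.02 with limma, and leaving out each library gave -1.05 to -0.94, so whether IGF2R is counted as beyond 1 depends on the setting. Per length, IGF2R stood at 2.60 and 2.80 times IGF1R in WT and at 1.48 and 1.39 times in HSF1-pLVX. Of 7 other genes that place or read the mannose 6-phosphate tag and sort tagged enzymes, 3 were lower, 0 were higher and 4 did not pass. Over all tested genes 33.2% were lower and 32.7% higher, and the median log2 fold change of the 7 was 0.0031. The lower ones among the 7 were GNPTAB (-1.06), a subunit of the enzyme that starts the tag, NAGPA (-0.47), which uncovers it, and GNPTG (-0.30), another subunit of the starting enzyme, as log2 fold changes. M6PR, the smaller mannose 6-phosphate receptor, had 58.4 and 51.2 CPM in WT and 58.8 and 63.7 CPM in HSF1-pLVX (log2 fold change 0.16 ± 0.09 SE, adjusted p = 0.142, edgeR); it is named here after its values were seen.

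The docking proteins IRS1 and IRS2, which link the activated receptor to PI3K, were measured lower in HSF1-pLVX, IRS2 firmly and IRS1 with a call that depended on the test. IRS2 (ENSG00000185950.8, chr13:109752698-109786568, minus strand) had 72.2 and 69.1 CPM in WT and 46.4 and 47.9 CPM in HSF1-pLVX. The pairs were tight and did not overlap. Its log2 fold change was -0.58 ± 0.08 (SE, 95% interval -0.76 to -0.41), with an adjusted p of 2.36e-05 (edgeR). IRS1 (ENSG00000169047.5, chr2:226731317-226799759, minus strand) had 13.7 and 11.5 CPM in WT and 9.56 and 9.46 CPM in HSF1-pLVX. Here the difference between the WT libraries was wider than the gap between the groups. The log2 fold change was -0.41 ± 0.14 (SE, 95% interval -0.70 to -0.12), with an adjusted p of 0.0165 (edgeR). The IRS1 call was lost with DESeq2 (adjusted p = 0.0755) and without WT replicate 1, HSF1-pLVX replicate 1 or HSF1-pLVX replicate 2, with adjusted p between 0.0572 and 0.217 for these, and was kept without WT replicate 2 (0.00351). Per length, IRS2 stood at 6.42 and 7.37 times IRS1 in WT and at 5.94 and 6.19 times in HSF1-pLVX, a difference not tested.

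**Figure D2:**
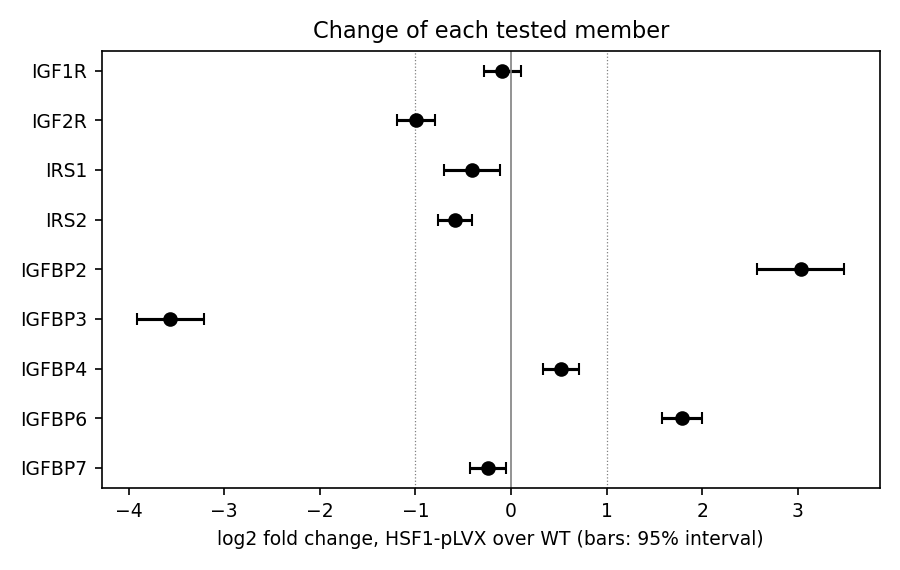
Log2 fold change of HSF1-pLVX over WT for the 9 tested IGF genes, with 95% intervals from edgeR (2 libraries per group). The solid line marks no change and the dotted lines a log2 fold change of 1 in either direction, and the interval of IGF1R alone crosses 0.

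Among the binding proteins, IGFBP3 was lower and IGFBP2 and IGFBP6 were higher, each by more than any receptor or docking protein changed, while IGFBP4 and IGFBP7 changed less than IGF2R. IGFBP3 (ENSG00000146674.14, chr7:45912245-45921874, minus strand), the main carrier of IGFs in blood, had 331.6 and 319.1 CPM in WT and 33.7 and 20.9 CPM in HSF1-pLVX. Both HSF1-pLVX values were an order of magnitude below WT, although they differed between themselves more than the WT values did in relative terms. The log2 fold change was -3.56 ± 0.16 (SE, 95% interval -3.91 to -3.22), with an adjusted p of 2.15e-10 (edgeR). The fitted ratio of HSF1-pLVX to WT was 0.0846. IGFBP3 was rank 240 from the lowest log2 fold change among the tested genes. Fits without any 1 library put IGFBP3 between -3.96 and -3.26.

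IGFBP2 (ENSG00000115457.9, chr2:216632828-216664436, plus strand), a binding protein with a preference for IGF2, had 77 and 66 counts in WT (4.10 and 3.55 CPM) and 606 and 773 counts in HSF1-pLVX (24.1 and 38.9 CPM). The HSF1-pLVX libraries were both several times above WT and differed clearly from each other. The log2 fold change was 3.03 ± 0.21 (SE, 95% interval 2.58 to 3.49), with an adjusted p of 1.65e-08 (edgeR). The fitted ratio of HSF1-pLVX to WT was 8.18, and leaving out each library gave log2 fold changes of 2.66 to 3.34. IGFBP5 (ENSG00000115461.4, chr2:216672105-216695525, minus strand) lies 7669 bases from IGFBP2, with the ends of the genes facing each other. It had 1 and 0 counts in WT and 4 and 2 in HSF1-pLVX. That is too few to test, and no difference was detectable at this depth.

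IGFBP6 (ENSG00000167779.7, chr12:53097436-53102345, plus strand), another binding protein that prefers IGF2, had 65.8 and 59.4 CPM in WT and 201.9 and 230.2 CPM in HSF1-pLVX. The groups were well apart, with a wider spread in absolute terms at the higher level. The log2 fold change was 1.79 ± 0.10 (SE, 95% interval 1.57 to 2.0), with an adjusted p of 1.49e-09 (edgeR). IGFBP4 (ENSG00000141753.6, chr17:40443461-40457731, plus strand), generally an inhibitor of IGF action until it is cut by PAPPA, had 39.8 and 35.7 CPM in WT and 54.4 and 54.3 CPM in HSF1-pLVX. The HSF1-pLVX libraries were nearly equal and above both WT libraries. Its log2 fold change was 0.53 ± 0.09 (SE, 95% interval 0.33 to 0.72), with an adjusted p of 1.21e-04 (edgeR).

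IGFBP7 (ENSG00000163453.11, chr4:57030773-57110385, minus strand) had 234.5 and 225.3 CPM in WT and 193.4 and 195.2 CPM in HSF1-pLVX. The groups did not overlap, but the change was small. Its log2 fold change was -0.24 ± 0.09 (SE, 95% interval -0.43 to -0.06), with an adjusted p of 0.0238 (edgeR). The call was lost with library size scaling alone (-0.18, adjusted p = 0.0655), without the filter on low counts (0.0543), with the replicate block (0.0539) and without WT replicate 1, HSF1-pLVX replicate 1 or HSF1-pLVX replicate 2 (0.0880 to 0.138), while over all alternatives that kept every library the adjusted p was 0.00629 to 0.0655. In addition, 270 bases of its counted exons, 14.0% of their length, overlap POLR2B on the opposite strand, which had 2229 and 2280 counts in WT and 2899 and 2175 in HSF1-pLVX. A further 94 bases overlap IGFBP7-AS1, which had at most 4 counts. Reads in the shared bases could not be assigned to a strand from the sources used here.

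Per length, the order of the binding proteins differed between the cell variants. In WT the order by mean CPM per kilobase was IGFBP7 (119.1), IGFBP3 (71.2), IGFBP6 (48.9), IGFBP4 (17.2, the mean of 18.1 and 16.2), IGFBP2 (0.803) and IGFBP5 (0.0041). In HSF1-pLVX it was IGFBP6 (168.9), IGFBP7 (100.7), IGFBP4 (24.7), IGFBP2 (6.61), IGFBP3 (5.98) and IGFBP5 (0.0202). The libraries of neighbours in these orders did not overlap, except for IGFBP2 (5.06 and 8.16) and IGFBP3 (7.38 and 4.57) in HSF1-pLVX cells. The summed level of the 6 binding protein transcripts was 264.4 and 249.9 CPM per kilobase in WT and 295.2 and 318.5 in HSF1-pLVX. IGFBP3 held 27.4% and 27.9% of that sum in WT and 2.50% and 1.43% in HSF1-pLVX. IGFBP6 held 19.5% and 18.6% in WT and 53.5% and 56.5% in HSF1-pLVX. The ratio of IGFBP3 to IGFBP6 per length went from 1.41 and 1.5 to 0.0468 and 0.0254. The lengths are those of all counted exons of a gene rather than of 1 transcript, such as 4571 bases for IGFBP3 and 1279 for IGFBP6. Order, shares and ratios between genes depend on them. Shares of a sum are tied to each other, and transcript levels do not give the amounts of secreted protein.

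**Figure D3:**
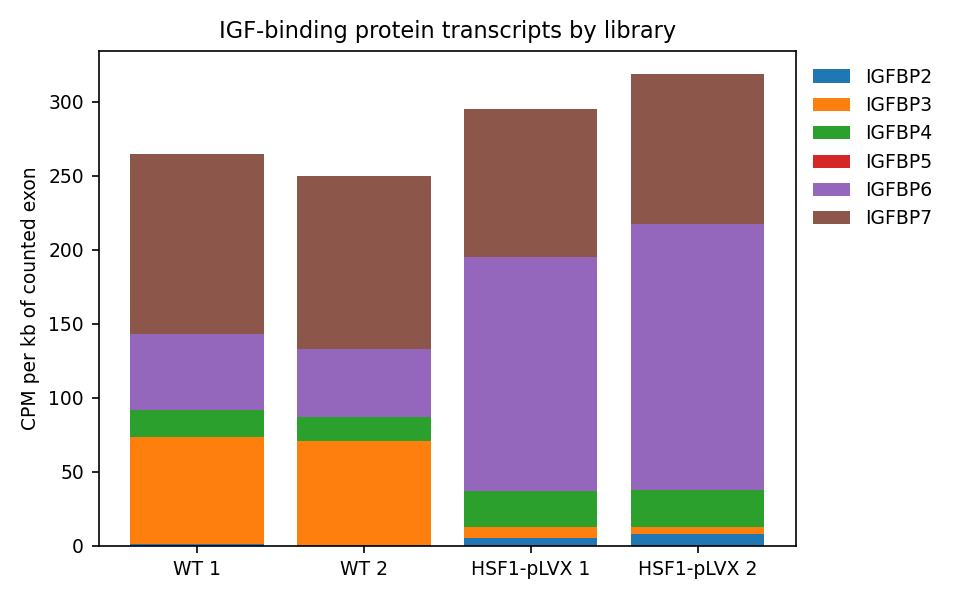
Summed level of the 6 IGF-binding protein transcripts in each of the 4 libraries, in CPM per kilobase of counted exon, stacked by gene. IGFBP3 (orange) narrows from 27.4% and 27.9% of the WT bars to 2.50% and 1.43% of the HSF1-pLVX bars, and IGFBP6 (purple) widens from 19.5% and 18.6% to 53.5% and 56.5%.

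The study calls a gene changed when both replicate numbers give a ratio over 2 or under 0.5. On the authors' normalized values 4 of the 10 genes met that rule. IGFBP2 (ratios 4.94 and 9.04) and IGFBP6 (2.95 and 3.81) were up, as were 5.00% of all 22321 genes in that table. IGFBP3 (0.101 and 0.0675) and IGF2R (0.496 and 0.488) were down, as were 6.42%. Both shares are over every gene of that table, including genes too low to test, such as IGFBP5. Of the 15830 tested genes, 14.0% were lower and 14.9% higher at an adjusted p of 0.05 and a log2 fold change beyond 1. IGF2R sat just inside the limit, and the nearest gene outside it among these was IRS2, at 0.627 and 0.692.

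Genes that act around the binding proteins were taken from fixed lists. Of 9 proteases that cut IGF-binding proteins and their inhibitors, 6 were tested, of which 3 were higher and 3 lower. HTRA1, a secreted serine protease, had 41.8 and 38.5 CPM in WT and 165.7 and 190.9 CPM in HSF1-pLVX (log2 fold change 2.15 ± 0.10 SE, adjusted p = 2.58e-10, edgeR). STC1 (1.39) and STC2 (0.64), stanniocalcins that inhibit PAPPA, were also higher on the log2 scale. PAPPA, the protease of IGFBP4, had 11.2 and 9.04 CPM in WT and 7.41 and 5.74 CPM in HSF1-pLVX (log2 fold change -0.62 ± 0.17 SE, adjusted p = 0.00514, edgeR). The membrane proteases ADAM28 (-1.82) and ADAM12 (-0.96) were lower too. Over all tested genes 33.2% were lower and 32.7% higher. A link between the levels of IGFBP4, PAPPA, STC1 and STC2 was not tested, and transcript levels do not give protease activity.

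Of 6 genes of the CCN family, matrix proteins that share an IGFBP-like domain, 2 were tested and both were lower, as were 33.2% of all tested genes. CCN1 had 426.7 and 500.1 CPM in WT and 54.2 and 56.6 CPM in HSF1-pLVX, a log2 fold change of -3.07, and CCN2 had a log2 fold change of -1.86. Of 5 genes of the IGF-like family, 2 were tested and both were lower. IGFL1 had 534.8 and 605.6 CPM in WT and 48.2 and 32.1 CPM in HSF1-pLVX, a log2 fold change of -3.82. IGFL3 had 12 and 17 counts in WT and 0 in both HSF1-pLVX libraries, at least 5.75-fold lower against a floor of 3 counts per library. Of 5 surface partners of IGF-binding proteins, 4 were tested. LRP1 (1.45), an endocytic receptor that binds IGFBP3, and ITGA5 (0.66), an integrin subunit, were higher, and ITGB1 (-0.71), its partner subunit, and TMEM219 (-0.22), an IGFBP3 receptor, were lower on the log2 scale. Of 3 IGF2BP genes, which bind IGF2 and other messenger RNAs, 2 were tested, of which IGF2BP2 was higher (0.40) and 1 did not pass.

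Downstream of the receptors the calls were mixed, where 33.2% of all tested genes were lower and 32.7% higher. Of 21 adaptors and brakes at the receptor, 20 were tested, with 8 lower, 7 higher and 5 not called. GRB14 (1.66), an adaptor that inhibits the insulin receptor, PTPN2 (1.01), a tyrosine phosphatase, and SH2B2 (0.79), an adaptor, were the most increased on the log2 scale. SOCS1 (-1.61), SOCS6 (-1.33), both suppressors of cytokine signalling, and CRK (-0.97), an adaptor, were the most decreased. Of 27 genes of PI3K, AKT and mTOR, 24 were tested, with 14 lower, 6 higher and 4 not called, and a median of -0.34. PIK3R1 (1.72), the regulatory subunit that binds IRS proteins, EIF4EBP1 (1.71), a brake on translation that mTOR releases, and MLST8 (0.59), a subunit of mTOR complexes, rose the most. PHLPP2 (-1.32), a phosphatase of AKT, GSK3B (-0.99), a kinase that AKT inhibits, and INPPL1 (-0.65), a lipid phosphatase, fell the most.

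FOXO factors are kept out of the nucleus by AKT. Of 11 FOXO factors and targets, all tested, 5 were lower, 5 higher and 1 not called. SESN1 (1.25), BCL6 (1.15) and PDK4 (1.03) rose the most, and CITED2 (-2.15), CCNG2 (-1.36) and SESN3 (-1.33) fell the most on the log2 scale. Across all lists, 79 of 103 genes were tested, with 39 lower, 25 higher and 15 not called and a median log2 fold change of -0.19, against 33.2% lower and 32.7% higher and a median of 0.02 over all tested genes.

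**Figure D4:**
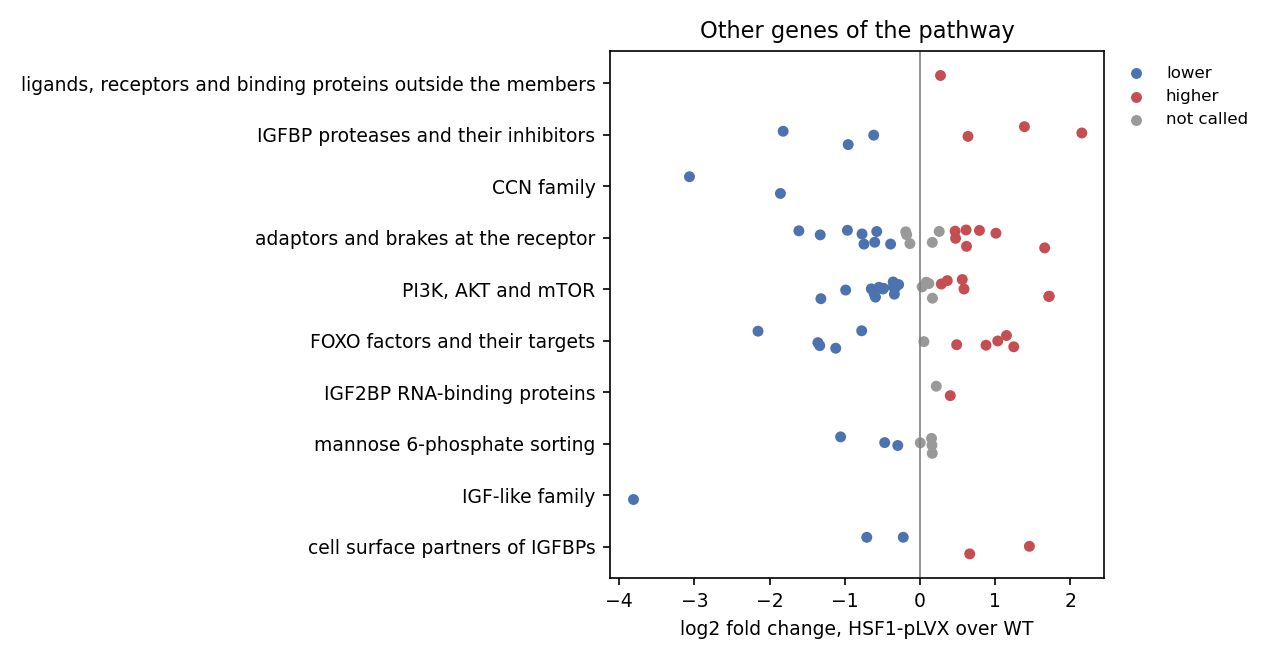
Log2 fold change of HSF1-pLVX over WT for the tested genes of each pathway list, 1 point per gene, blue for called lower, red for called higher and grey for not called at an adjusted p of 0.05 (edgeR). IGFL3, at 0 in both HSF1-pLVX libraries, is not drawn, and most lists hold genes on either side of 0, while both CCN genes lie to the left at -3.07 and -1.86.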

How the data were processed

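RNA-seq of 2 WT and 2 HSF1-pLVX MCF10A libraries (total RNA, ribosomal RNA depleted, paired-end reads of 76 bp) was analysed. The authors aligned reads to hg38 with HISAT2 2.0.5, used SAMtools 1.13 and deposited raw counts per gene from featureCounts 1.6.5 (GENCODE 26), whose strand, overlap and multi-mapping settings are not given in the sources used here. They also deposited log2-like values normalized with DESeq2 1.32.0, used here for the ratio rule and 1 alternative. Groups and replicate numbers came from the labels. P-values measure only the spread between these libraries, which the study calls biological replicates.

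The main test was edgeR 4.0.16 run under R 4.3.3 on the counts (TMM, filterByExpr, quasi-likelihood test, no replicate block), with Benjamini-Hochberg adjustment over 15830 genes. Intervals are 95%. The test was checked on simulated data. Chi-square per degree of freedom between libraries of a pair was 7.33 for WT and 9.19 for HSF1-pLVX, so the libraries of a pair were not copies of each other. It cannot tell whether they came from separate cultures. Alternatives used other normalizations, DESeq2 1.42.0, limma 3.58.1, no filter, the block and each library left out. Symbols came from GENCODE 44. Named genes are all 10 members, HSF1 and every gene of the list of ligands, receptors and binding proteins. Per other pathway list, they are up to 3 called genes with the largest changes in each direction. Of the cell type markers only some are named, and the others enter the sums and counts. The members and lists were chosen with earlier results of these data known.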

Additional observations from a re-analysis of the deposited data

How the results depend on the processing

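Of 110 recalculated values for HSF1 and the 9 tested IGF genes, 99 kept direction and side of the threshold, 10 lost their call (all IRS1 or IGFBP7, with values given above) and 1 turned sign (IGF1R, from -0.16 to 0.0061 when each library was left out). Leaving out each library gave 3 to 5 IGF genes lower. With a log2 fold change beyond 1 added, 1 IGF gene was lower, the pathway lists had 13 lower and 10 higher, and all tested genes 2218 lower and 2358 higher, since the rule is stricter by construction. Library size scaling alone moved the median of all genes by 0.06 on the log2 scale, with 4751 called lower and 5458 higher.

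The replicate numbers are not stated to mark a shared culture or day, and the correlation of same-numbered deviations was 0.00014 over all tested genes and -0.11 over genes above 8 CPM. With the replicate block 4 IGF genes were lower and 3 higher, IGFBP7 being the call lost, and all tested genes had 5171 lower and 5138 higher. The crossed pairing, chosen after seeing the data, gave 5 and 3 IGF genes and 5487 lower and 5429 higher over all tested genes. The values rest on 2 libraries a group, and genes with few counts, such as IGFBP5, were not resolved.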

Other observations

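PIK3R2, a regulatory subunit of PI3K, had 4 and 9 counts in WT and 17 and 9 in HSF1-pLVX and was not tested. It shares 87.2% of its counted length with another gene model on the same strand, and is named here after its values were seen.

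DCN, a fibroblast marker that codes for the matrix proteoglycan decorin, had 1 and 3 counts in WT and 94 and 87 counts in HSF1-pLVX and was called higher (adjusted p = 1.12e-07, edgeR quasi-likelihood test). COL1A1, the other tested fibroblast marker, had 135 and 193 counts in WT and 269 and 183 in HSF1-pLVX. It did not pass (adjusted p = 0.353, edgeR quasi-likelihood test). PDGFRA had 6 and 4 counts in WT and 1 and 1 in HSF1-pLVX, and PDGFRB had 2 and 0, then 10 and 5. COL1A2, COL3A1, LUM and THY1 had at most 2 counts in any library.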
